A study of Drosophila melanogaster with 4 samples.

Results

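Long stretches of the Drosophila melanogaster genome without any region enriched for histone H3 monomethylated at lysine 27 (H3K27me1) were described along the 5 large chromosome arms. All lines of the 3 deposited region lists on 2L, 2R, 3L, 3R and X were pooled, overlapping regions were merged, and every gap of 30 kb or more between neighbouring merged regions was taken as a free stretch. This gave 560 stretches among 10833 gaps between 10838 merged regions. Chromatin was taken from wild-type Oregon-R animals at larval instar 3 after homogenization and formaldehyde fixation, so each list averages over the cell types of the tissue. The H3K27me1 group holds 2 ChIP samples made with a rabbit polyclonal antibody, and the input group holds 2 samples, of which no file was analysed here. Each ChIP sample has its own list (replicates 1 and 2), and the third list belongs to the whole series. Whether the replicates are separate collections of larvae is not in the labels, and their spread may therefore be technical only.

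Lysine 27 of histone H3 can carry 1 to 3 methyl groups, and in Drosophila all of these states depend on Enhancer of zeste, the catalytic subunit of Polycomb repressive complex 2. The trimethylated state is known from broad domains over silenced developmental genes, where it is bound by Polycomb. The monomethylated state has been mapped mainly to the bodies of transcribed genes. An absence of H3K27me1 regions does not tell which other state of the residue a stretch carries.

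Regions covered 21.9% of the 5 arms for replicate 1, 17.5% for replicate 2 and 32.4% for the whole-series list. Together they covered 39.1 Mb, or 32.8% of the arms. The free stretches held 34.3 Mb, which was 28.8% of the arms and 42.9% of all bases outside regions, although they made up only 5.17% of the gaps. Most gaps were short, with a median of 2.26 kb over all gaps and of 2.03 kb over gaps under 30 kb. Library depth is unknown, and sequence to which reads cannot be placed was not assessed, so a stretch is a part of the arm without a called region and not one shown to lack the mark.

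Stretch lengths were skewed, with many stretches near the threshold and a few that were far longer. The median length was 48.1 kb, with quartiles of 36.9 and 73.4 kb. Stretches of 30 to 50 kb numbered 304 and held 34.2% of the stretch bases. Stretches of 50 to 100 kb numbered 193 and held 38.9%. The 63 stretches of 100 kb or more, 11.3% of all, held 26.8% of the bases, and 8 of them reached 200 kb. The threshold of 30000 bases fell within a continuous range of lengths. The gaps just below it measured 29954 bases on 2R and 29991 bases on 3R, and the stretches just above it measured 30047 bases on 2R and 30054 bases on X.

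**Figure D1:**
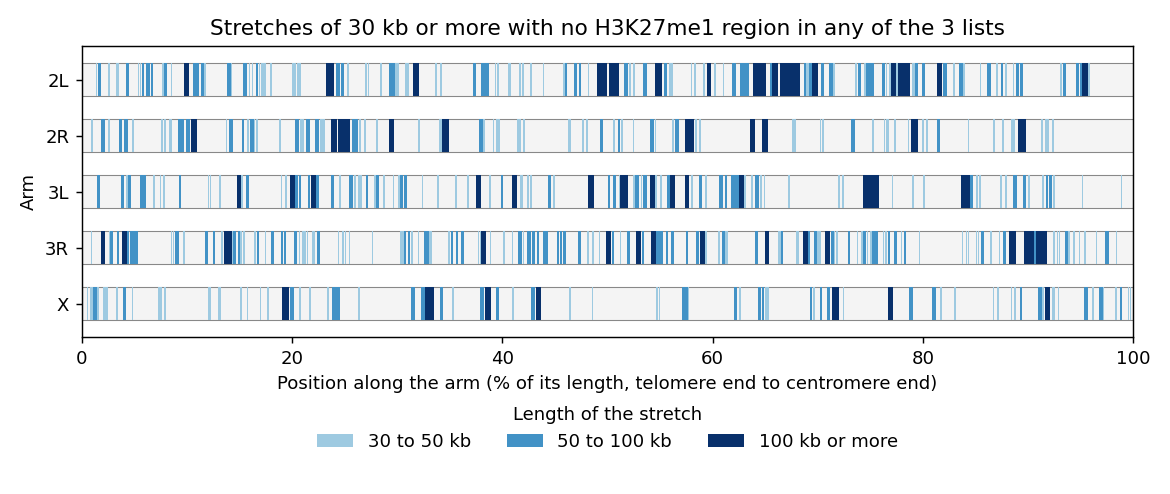
Position of the 560 free stretches on the 5 arms. The x axis is the position along the arm in percent of its length from the telomere end to the centromere end, and the shade gives the length class (304 of 30 to 50 kb, 193 of 50 to 100 kb, 63 of 100 kb or more). Stretches lie on all arms, and the dark ones stand close together on 2L between about 60% and 80% of the arm.

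The arms differed in how much of their length lay in free stretches. The pooled share was 36.9% on 2L, 34.3% on 3R, 26.0% on 3L, 24.4% on 2R and 20.8% on X. 2L held 131 stretches, or 5.69 per Mb, and 3R held 156, or 5.59 per Mb. 3L held 101 (4.12 per Mb), 2R held 90 (4.26 per Mb) and X held 82 (3.66 per Mb). The arms differed less in the typical length, with medians between 43.1 kb on 2R and 50.1 kb on 2L. Stretches of 100 kb or more took 11.7% of 2L, 7.98% of 3R, 7.70% of 3L, 6.79% of 2R and 4.28% of X.

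The same count was made in each replicate list alone. Its spread belongs to the shares of single lists and is not an error of the pooled shares. Fewer regions are listed in a replicate than in the pool, so more of each arm counted as free. Replicate 1 alone had 771 stretches over 46.8% of the arms and replicate 2 alone had 824 over 56.1%. The mean share was 57.1% ± 5.7 on 2L, 55.4% ± 6.9 on 3R, 51.9% ± 6.2 on 3L, 46.8% ± 6.8 on X and 44.5% ± 7.5 on 2R (SD, n = 2). These ranges of mean and SD overlap between arms, and replicate 2 was higher on every arm. The values themselves, 53.1% and 61.1% on 2L, lay above those of 2R (39.2% and 49.9%) and X (42.0% and 51.6%). Those of 3R, 50.5% and 60.2%, lay above those of 2R. The values of all other pairs of arms overlapped. Taken within a replicate, the share of 2L was 1.17 times that of the other 4 arms in replicate 1 and 1.11 times in replicate 2. For 3R the ratio was 1.11 and 1.10, and for 3L it was 1.02 and 1.00. X stood below the other arms in each replicate, at 0.88 and 0.90 times, and so did 2R, at 0.81 and 0.87 times. In the pooled lists the arms stood further apart, with ratios of 1.37 on 2L, 1.26 on 3R, 0.88 on 3L, 0.82 on 2R and 0.68 on X, and 3L was below the other arms there alone. X and 2R changed places between the counts: X had the lowest share in the pooled lists and 2R the lowest in each replicate alone. No p is attached to these ratios, since the smallest two-sided p of an exact sign-flip test of 2 replicates is 0.5.

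**Figure D2:**
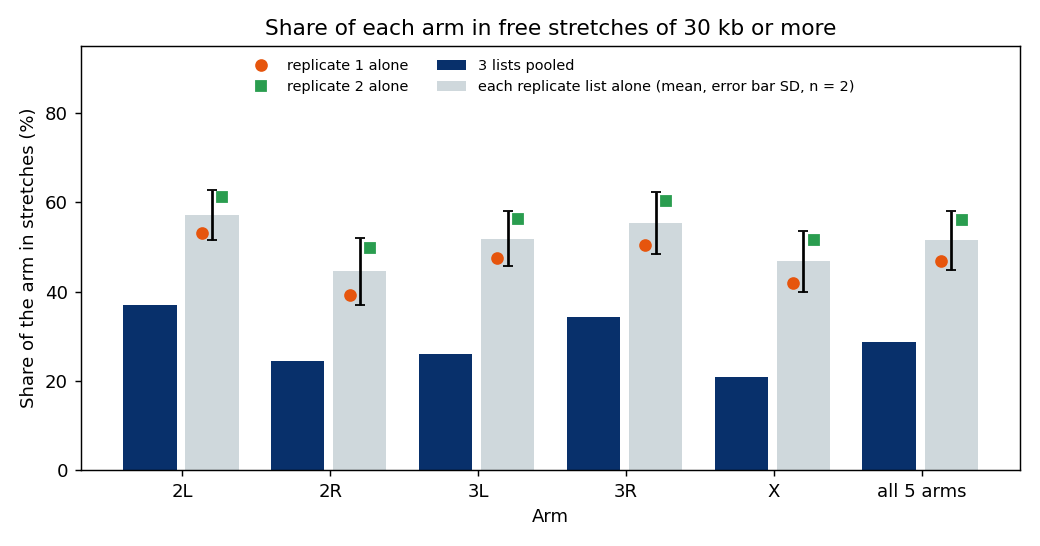
Share of each arm, in percent, in free stretches of 30 kb or more. Dark bars are the 3 lists pooled, grey bars the mean of each replicate list alone with its SD (n = 2), and points the replicates. Replicate 2 lies above replicate 1 on every arm, 2L is highest and 2R lowest in both, and X is lowest in the pooled lists at 20.8%.

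Some of the longest stretches kept nearly the same ends in both replicates. By construction none of their bases is covered, so the interval free of regions around each was measured again in each replicate alone, where it can only be as long as the stretch or longer. The longest stretch, on 3L from 18236680 to 18612349, measured 376 kb, and the free interval around it measured 383 kb in replicate 1 and 376 kb in replicate 2. On 2L from 14691122 to 14974156 the stretch measured 283 kb and the free intervals 285 and 283 kb. A further 2L stretch, from 15503519 to 15716869, measured 213 kb, with free intervals of 214 and 213 kb. Neither replicate lengthened these 3 stretches by more than a few kilobases.

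Other long stretches ended, on 1 side or both, at a region that the whole-series list held and the replicates did not. On 3R from 2287006 to 2583235 the stretch measured 296 kb, while the free interval around it was 349 kb in each replicate. On the same arm from 2644729 to 2890378 it measured 246 kb, against 274 kb in each replicate, and both of its flanking regions were absent from both replicates. The longest stretch of X, from 7329762 to 7520090, measured 190.3 kb, against 292 kb in replicate 1 and 283 kb in replicate 2. On 2R the longest, from 8831656 to 9006333, measured 175 kb, against 199 and 202 kb. Of the 12 stretches compared, which are the 10 longest and the longest of each arm, 6 were extended by under 10 kb in both replicates. Of these 6 stretches, 4 lay on 2L and 2 on 3L.

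**Figure D3:**
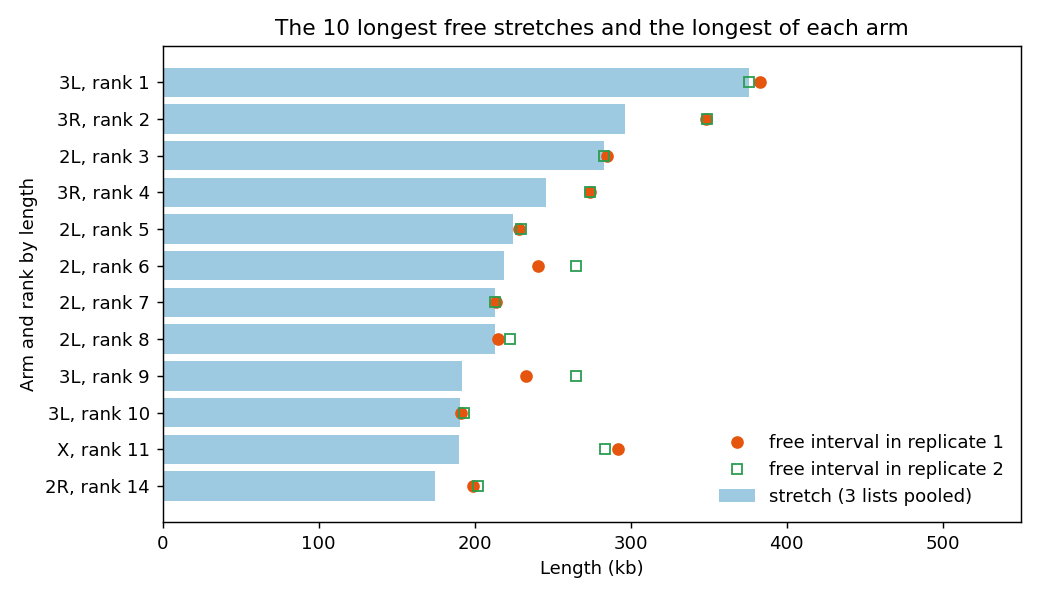
Length in kb of the 10 longest free stretches and of the longest of each arm (bars), with the interval free of regions around each one in replicate 1 (circles) and replicate 2 (squares). Points at the end of a bar mark stretches that neither replicate extends. The stretch of rank 11, on X, is the one both replicates extend furthest, to 292 and 283 kb against 190.3 kb.

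Over all 560 stretches the replicates alone extended the free interval to a median of 84.1 kb in replicate 1 and 111 kb in replicate 2. The interval was at least 2 times the stretch for 171 stretches in replicate 1 and for 268 in replicate 2. Among stretches of 100 kb or more, 19 of 63 (30.2%) grew by at most 10 kb in both replicates. Among those of 30 to 50 kb, 42 of 304 (13.8%) did. The whole-series list set most of the ends: in that list alone 552 stretches were at most 10% longer, and 394 had exactly the same ends.

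Free stretches followed one another more often than gaps in general. A run was defined as stretches in a row with a single merged region between each and the next. Of 560 stretches, 153 (27.3%, 95% Wilson interval 23.8 to 31.2) lay in such runs. The next gap after a stretch was itself a stretch in 85 cases (15.2%, 12.4 to 18.4), whereas after a gap under 30 kb it was a stretch in 4.63% of cases (4.24 to 5.05). At a distance of 5 gaps the share was 7.33% (5.45 to 9.80), and at 10 gaps it was 5.20% (3.64 to 7.36), close to the 5.17% over all gaps. Gap lengths next to each other had a Spearman correlation of 0.17 across 10828 pairs, which fell to 0.01 at 5 gaps apart. The intervals treat gaps as independent and cover counting error only, and regions and gaps of an arm are not replicates.

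Runs were mostly pairs. There were 56 runs of 2 stretches, 7 of 3 and 5 of 4. The longest of the runs of 4 lay on 3R from 23813263 to 24142220 and spanned 329 kb, of which 98.2% was free. Its 3 regions held 1409 bases of replicate 1 regions and none of replicate 2. Another on 2L, from 15802111 to 16116555, spanned 314 kb, and its regions held 3692 bases in replicate 1 and 1582 in replicate 2. A run on 2L from 21762050 to 22056274 spanned 294 kb and held 6794 and 4815 bases. The fourth, on 3R from 18618219 to 18833317, spanned 215 kb and held no base of either replicate, so its 3 regions came from the whole-series list alone. The fifth, on 2L from 17127971 to 17340338, spanned 212 kb, with 1763 and 1937 bases. Of the 5 runs, 3 lay on 2L and 2 on 3R.

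The widest span was made by a pair. On 2L, stretches of 224 and 213 kb were separated by a region of 4.00 kb that both replicates held, and the pair spanned 442 kb, 99.1% of it free. The score of that region, a deposited enrichment value of unstated scale, was 0.46 in replicate 1 and 0.67 in replicate 2.

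On the scale of 1 Mb, the pooled stretches were concentrated in a few bins and nearly absent from others. Over 117 full bins the share of bases in stretches had a median of 27.5% and ran up to 81.2%, which was reached on 2L from 15 to 16 Mb. In that bin the replicates alone gave 85.1% and 90.6%. It was followed by 2L from 17 to 18 Mb with 68.0%, spread over 11 stretches, by 3R from 2 to 3 Mb with 66.1% and by 3R from 8 to 9 Mb with 60.0%. Stretches took at least 50% of 9 bins, of which 5 lay on 2L, 2 on 3R, 1 on 2R, 1 on 3L and none on X. They took under 10% of 13 bins. Of these, 3 bins held none: the first Mb of 2R and, on X, the bins from 6 to 7 and from 11 to 12 Mb. In the replicates alone the 2R bin had 20.4% and 18.1%, and the X bins had 20.6% and 31.2%, then 20.6% and 30.4%. Other bins under 10% varied in the replicates. The bin of 3L from 23 to 24 Mb had 3.01% pooled, against 55.1% and 63.7%. That of 3R from 5 to 6 Mb had 3.46%, against 23.1% and 24.0%. Across the 117 bins the share from replicate 1 alone and that from replicate 2 alone had a Spearman correlation of 0.91, as a description of bins that share their position and not as a test.

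The space between neighbouring stretches ranged more widely than the stretches did, with lengths from 1.00 to 1340.4 kb for spaces and from 30.05 to 376 kb for stretches. Stretches have at least 30 kb by the rule and spaces have no such limit, so this is partly built in. The median distance from a stretch to the next on its arm was 68.5 kb, and for 245 of 555 it was at most 50 kb. The longest interval between neighbours lay on X from 10905895 to 12246265, measured 1340.4 kb and held 172 merged regions. This interval was covered at 29.9% in replicate 1 and 23.0% in replicate 2, against 21.9% and 17.5% of the arms. The arm values include the free stretches, which such an interval excludes by definition, so a value above the arms is at least partly built in. The second, on 3L from 16529070 to 17661357, measured 1132 kb with 36.5% and 30.0% of its bases in regions. The third, on 3R from 4538129 to 5647928, measured 1109.8 kb with 32.4% and 27.4%. Of the 8 longest such intervals, 5 were on X.

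No single gradient from telomere to centromere was seen. Each arm was divided into 5 segments of equal length, numbered from the telomere. Stretches took 27.3% of segment 1, 30.7% of segment 2, 29.8% of segment 3, 32.3% of segment 4 and 23.9% of segment 5, next to the centromere. The replicates alone gave 48.5% ± 8.6 in segment 1 and 49.3% ± 6.1 in segment 5 (SD, n = 2). Single arms departed from this. On 2L segment 4 had 60.3%, against 26.0% in segment 5, and each replicate alone kept that order, with 72.4% and 77.6% in segment 4 against 45.7% and 51.2% in segment 5. On 2R segment 2 had 38.0% and segment 5 had 15.0%, which the replicates alone gave as 57.7% and 63.8% against 29.1% and 37.4%. On X segment 3 was lowest, with 11.9%. On 3L segment 5 had 18.9% with all lists pooled, but 44.3% with the lists of both replicates pooled without the whole-series list.

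A stretch found in a replicate was next set against the other replicate, which had no part in choosing it. The value measured was therefore not used in the choice, but the lists are not independent otherwise, and the replicates may be technical only. Sequence to which reads cannot be placed was not assessed and could be free of regions in both lists. Stretches chosen from replicate 1 alone, 55.7 Mb in all, were covered at 1.21% in replicate 2, whereas the rest of the arms was covered at 31.9%. Stretches chosen from replicate 2 alone, 66.8 Mb in all, were covered at 4.33% in replicate 1, whereas the rest was covered at 44.3%. Relative to the mean of the 5 arms, coverage inside was 0.069 times in the first direction and 0.20 times in the second, a mean of 0.13 ± 0.09 (SD, n = 2). Both ratios lay far below 1, but the directions differed between themselves by more than a factor of 2. Replicate 1 lists 7813 regions on the arms and replicate 2 lists 6477, and the part of this in the difference was not tested. The smallest two-sided p of an exact sign-flip test is again 0.5.

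Many stretches did not stay entirely empty in the other list. Of the 771 stretches of replicate 1, 369 (47.9%, 44.4 to 51.4) had no base covered in replicate 2. Of the 824 stretches of replicate 2, 80 (9.71%, 7.87 to 11.9) had none in replicate 1. Longer stretches were less often entirely empty. For replicate 1, 52.1%, 45.8% and 42.3% were empty at 30 to 50 kb, 50 to 100 kb and 100 kb or more. For replicate 2 the shares were 10.7%, 9.70% and 8.02%. A longer stretch has more bases in which a region of the other list can fall, so this order is partly built in. The covered share of the bases of longer stretches was nevertheless lower. For those of replicate 1 it was 2.04% at 30 to 50 kb, 1.31% at 50 to 100 kb and 0.64% at 100 kb or more. For those of replicate 2 it was 7.69%, 4.80% and 2.68% in the same classes. Edges are a smaller part of longer stretches, and the part of edges in this order was not tested. The stretch bases of the replicates overlapped by 52.6 Mb, which was 94.5% of those of replicate 1 and 78.8% of those of replicate 2.

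Regions that did lie wholly inside a stretch of the other replicate were narrow. By definition no region of the other replicate overlaps them. Nearly all regions of 5 kb or more were overlapped, so the narrow widths are partly built in. Replicate 2 had 325 such regions, 5.02% of its regions on the arms, with a median width of 1528 bp against 2288 bp for its other regions. None was 5 kb or wider. Replicate 1 had 1275, or 16.3%, with a median of 1653 bp against 2587 bp, and 8 of them reached 5 kb. Median scores were 0.524 inside and 0.563 elsewhere in replicate 2, and 0.524 and 0.587 in replicate 1. These scores were not compared at like width. Regions under 2 kb had lower medians than 0.524, whether or not they flanked a pooled stretch. The medians were 0.478 flanking and 0.475 elsewhere in replicate 1, and 0.479 and 0.487 in replicate 2. The ratio of coverage inside a stretch to coverage of its arm averaged between 0.12 on 3R and 0.15 on X, with SDs of 0.070 to 0.11 (n = 2) that mostly reflect the offset between the directions. Within a direction, X stood above 3R both times. The ratios were 0.078 against 0.055 measured in replicate 2 and 0.219 against 0.193 measured in replicate 1. The order of the arms did not repeat, since 2L was highest in replicate 2 (0.087) and lowest in replicate 1 (0.185).

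Coverage in the other replicate dropped steeply at the edge of a stretch. Each edge is by definition the border of a region of the choosing replicate. A step and a peak just outside are therefore partly built in wherever the other replicate shares that region. Across the edges of stretches of replicate 1, coverage in replicate 2 was 0.53% at 25 to 30 kb inside, 4.12% in the last 5 kb inside and 31.0% in the first 5 kb outside. Across the edges of stretches of replicate 2, coverage in replicate 1 was 2.39%, 12.7% and 50.9% at the same places. Beyond the first 5 kb outside, coverage fell to 20.8% in replicate 2 and 32.9% in replicate 1. By 45 to 50 kb outside it was 18.4% and 24.0%, near the arm means of 17.5% and 21.9%.

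**Figure D4:**
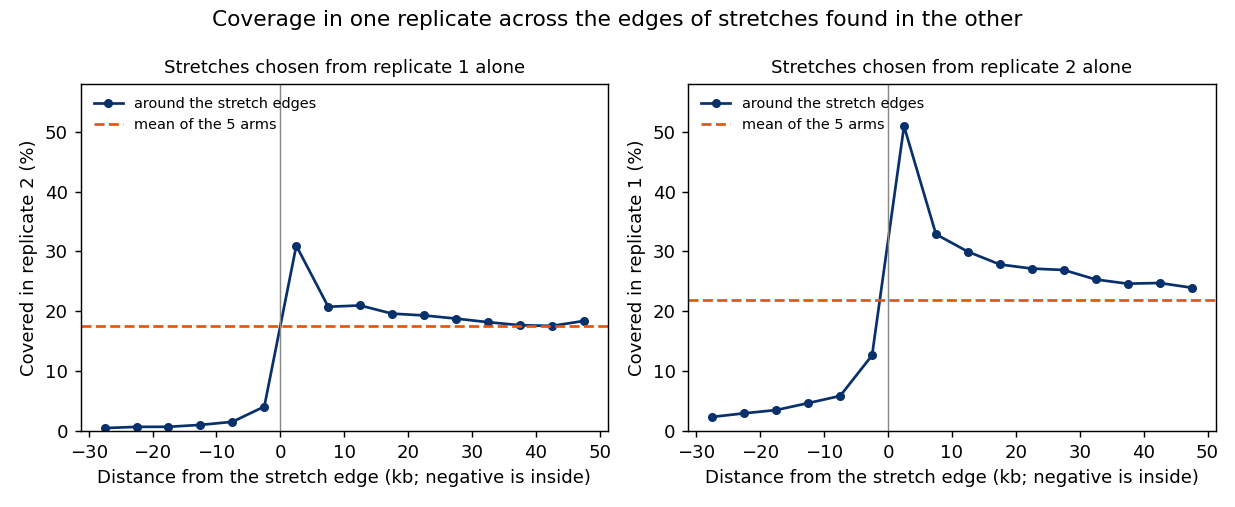
Share of bases covered, in percent, against the distance in kb from the edges of stretches chosen from the other replicate alone, with negative distances inside the stretch. Points are 5 kb bins averaged over both edges of all stretches, and the dashed line is the mean of the 5 arms (17.5% in replicate 2, 21.9% in replicate 1). Coverage is lowest deepest inside, at 0.53% and 2.39%, and peaks in the first bin outside, at 31.0% and 50.9%. Each edge is by definition the border of a region of the choosing replicate, so this peak is partly built in.

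The merged regions that flank the pooled stretches were described next. There were 1035 of them, 9.55% of all merged regions. They were narrower than the others, with a median of 1686 bp (quartiles 1249 and 2678 bp) against 2263 bp. Flanks of 10 kb or more numbered 25 (2.42%), against 617 (6.29%) of the other merged regions. The widest flank was 24.8 kb on 2L, from 12520953 to 12545787, with highest scores of 0.90 in replicate 1 and 0.78 in replicate 2. The next were 20.9 kb on 3L, from 15057639 to 15078496, with 0.96 and 0.77, and 17.9 kb on X, from 17626370 to 17644247, with 0.84 and 0.85. Width and score of flanks come from the same lists that define the stretches, so these differences are given without a test.

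Flanks were found less often by the replicates. Of the flanks, 252 (24.3%, 21.8 to 27.1) held regions of both replicates, against 39.5% (38.6 to 40.5) of the other merged regions. In neither replicate were 490 flanks (47.3%, 44.3 to 50.4), against 33.1% (32.2 to 34.0) of the others. The replicate lists are part of the pool that defines stretches and flanks, so these shares are given without a test. They are not matched for width, and the flanks were narrower, with a median of 1686 bp against 2263 bp. Both flanks were present in both replicates for 33 stretches (5.89%) and in neither for 146 (26.1%). The departure faded outward over the next few regions. The median width was 1662 bp for the first merged region outward from an edge, 1945.5 bp for the second, 1966 bp for the third and 2195 bp for the fifth, against 2166 bp for all. The share present in both replicates was 23.7%, 32.1%, 35.4% and 39.5% in the same order, against 38.1% for all. These shares count a flank once for each edge it bounds.

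Scores of flanking regions were slightly lower than those of other regions. In replicate 1 the median was 0.558 for 541 flanking regions and 0.575 for 7272 others. In replicate 2 it was 0.534 for 403 flanking regions and 0.562 for 6074 others. The difference of flanking minus other was -0.022 ± 0.009 (SD, n = 2), and -0.013 in the whole-series list. Within width classes the difference was smaller for narrow regions, at -0.003 ± 0.008 under 2 kb and -0.005 ± 0.006 at 2 to 5 kb (SD, n = 2). At 5 kb or more it was -0.021 ± 0.024 (SD, n = 2), about as large as over all widths but with a wider spread. In none of the 3 classes was it larger than the spread between replicates. Under 2 kb the sign differed, with 0.003 in replicate 1 and -0.008 in replicate 2. In the whole-series list the difference was 0.012 under 2 kb, 0.001 at 2 to 5 kb and -0.011 at 5 kb or more. Lower scores were thus not seen in every list at like width. Widths of regions of the replicates differed by -267 ± 54 bp (SD, n = 2), with medians of 2063 bp against 2291.5 bp in replicate 1 and 1930 bp against 2235 bp in replicate 2.

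Longer stretches had somewhat wider and better supported flanks. The median flank width was 1584.5 bp at stretches of 30 to 50 kb, 1714 bp at 50 to 100 kb and 1872.5 bp at 100 kb or more. Flanks present in both replicates made up 19.4%, 26.9% and 34.1% of the sides in the same order. Stretch length and the mean width of its flanks had a Spearman correlation of 0.18 over 560 stretches, and the widths of both flanks of a stretch one of 0.06. These are descriptions across stretches, some of which share a flank.

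Whether a flank is found again was also asked of the stretches of each replicate alone, where the other replicate had no part in the choice. Among regions of replicate 1 that flank its own stretches, 51.7% (49.1 to 54.3) were overlapped in replicate 2, against 71.0% (69.9 to 72.1) of its other regions. Of the flanking regions of replicate 2, 76.7% (74.5 to 78.8) were overlapped in replicate 1, against 86.4% (85.4 to 87.3). The difference was -14.5 ± 6.8 percentage points (SD, n = 2). It was present among narrow regions too. Under 2 kb, 28.4% of flanking and 44.7% of other regions of replicate 1 were found again, and 59.9% and 70.2% of those of replicate 2, a difference of -13.2 ± 4.2 points. At 2 to 5 kb the difference was -7.0 ± 7.6 points and did not exceed the spread between the directions. At 5 kb or more, 98.5% of flanking and 98.8% of other regions of replicate 1 and all of both kinds in replicate 2 were found again. An overlap of at least 1 bp counted, and other regions have more neighbours in the other list, whose part in the difference was not tested.

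**Figure D5:**
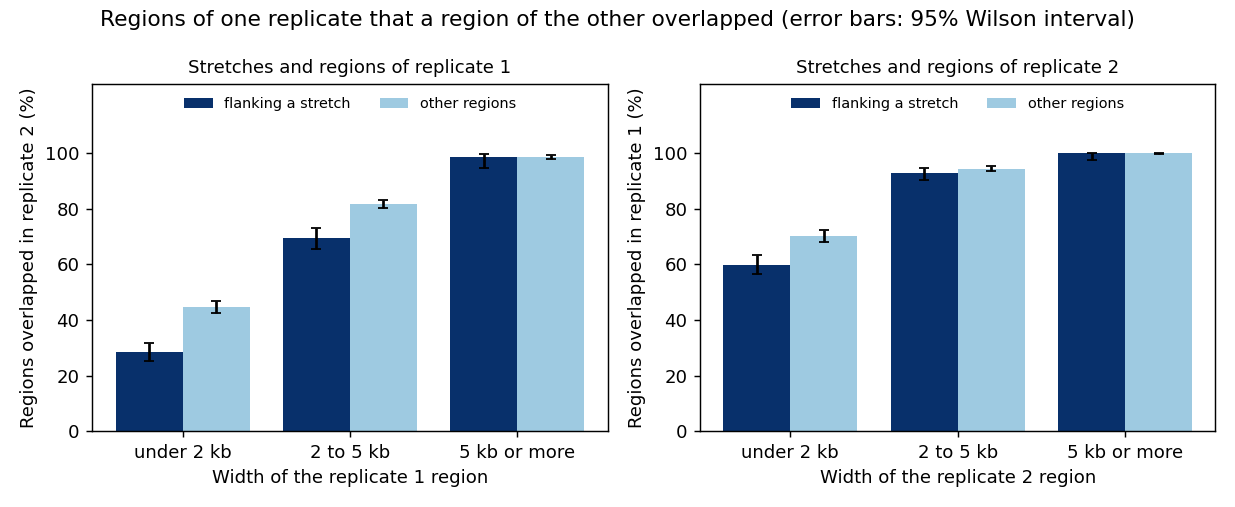
Share of regions, in percent, that a region of the other replicate overlapped by at least 1 bp, by width of the region. Dark bars are regions flanking a stretch of 30 kb or more of their own replicate and light bars all other regions, with 95% Wilson intervals that cover counting error only. The bars differ most under 2 kb (28.4% against 44.7% in replicate 1, 59.9% against 70.2% in replicate 2) and meet at 5 kb or more.

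Merged regions with a stretch on either side, here called islands, were the least supported. The 85 islands had a median width of 1395 bp. Of them, 13 (15.3%, 9.16 to 24.4) held regions of both replicates and 55 (64.7%, 54.1 to 74.0) held none. These shares too come from lists that define the islands and are not matched for width. A few islands stood out against this. The island with the highest lower replicate score was 10.6 kb on 3L, from 15225326 to 15235953, between stretches of 78.1 and 97.5 kb, with scores of 0.68 in replicate 1 and 0.66 in replicate 2. The widest was 14.04 kb on 3L, from 20724273 to 20738308, between stretches of 191 and 55.2 kb, with scores of 0.69 and 0.65. A 2.71 kb island on 2L, from 22020425 to 22023131, lay between stretches of 130.2 and 33.1 kb and had scores of 0.69 and 0.60. On the same arm, an island from 17286058 to 17288411, 2.35 kb wide, scored 0.59 and 0.64, and another from 21832609 to 21838879, 6.27 kb wide, scored 0.88 and 0.58. These 5 were picked for their scores, and where an island holds several regions of a replicate the highest score is given.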

How the data were processed

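H3K27me1 ChIP-seq lists of 2 ChIP samples and 1 whole-series list were used. The submitters' processing notes name Bowtie 0.12.7 without its role. Coordinates follow FlyBase release 5 and lines are regions of significant enrichment, per the file headers. Of the whole-series lines, 3 are marked as depletion and were kept. Details of the caller, its threshold, input use and pooling were not given in the sources used here. Regions carry an enrichment score that the authors deposited, of unstated scale, so differences and no folds are given. Library depth is unknown.

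Regions on 5 arms were merged where they shared at least 1 bp, and arm lengths came from the headers. A region past the end of its arm was trimmed (1 case). Arm ends outside the first and last region are not stretches. Positions are the first and last free or covered base. The replicates were compared as mean and SD, and shares have 95% Wilson intervals. The gap finder was tested on simulated data. Stretches named are the 10 longest, the longest of each arm and those nearest the threshold, the 5 runs with the most stretches, and the 5 islands with the highest lower replicate score. The widest pair, extreme bins, widest flanks and longest intervals were chosen after their values were seen. The members, lists and measures were chosen with earlier results of these data known. No gene is named and no sequence is shown, because the gene table at hand follows release 6. Alternatives were other length thresholds, other sets of lists, score and width minimums, joined regions and another definition of flanks. Python 3.11.15, numpy 2.4.6, pandas 2.3.3, scipy 1.17.1 and matplotlib 3.10.9 were used.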

Additional observations from a re-analysis of the deposited data

How the results depend on the processing

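Of 61 values of 7 results recomputed under alternatives, 42 stayed within the spread between replicates (for the number of stretches, within 1.5 times) and 19 moved further. For the share of the arms, the longest stretch and the share in runs, the spread is that of single lists. It is not an error of the pooled values, so these labels only sort the alternatives by size. For the coverage ratio and the flank differences, the spread is taken around the mean of both replicates. A value from a single replicate therefore stays within it by construction or nearly so, and such values show no robustness. The 16 values that can take either sign, the score and width differences of flanks over all widths, were all negative. The number of stretches, their share of the arms and the share in runs follow the length threshold by construction: they were 934, 36.4% and 32.7% at 20 kb and 256, 18.9% and 19.5% at 50 kb. At 50 kb the width difference of flanks was -199 bp. Dropping weaker regions opened more stretches: with regions at or above the median score there were 850, over 49.7% of the arms, the longest of 409 kb and 46.7% in runs. With regions of 2 kb or more the share was 48.2%, the longest 383 kb and 37.6% in runs. The replicate lists alone gave a share of 43.3%, 31.4% in runs and a width difference of -327 bp. With regions within 1 kb joined, 33.6% lay in runs and the width difference was -192 bp. Leaving out a replicate gave 559 to 569 stretches, a share of 28.8% to 29.2%, a longest stretch of 376 kb, 27.0% to 27.8% in runs, score differences of -0.029 to -0.017 and width differences of -305 to -235.5 bp. The whole-series list stays in these counts and may hold reads of the replicate left out, which limits what they show. Stretches chosen from a single replicate had a coverage ratio of 0.069 or 0.20. Leaving out the 3 depletion lines, an alternative added after the data were seen, left the 4 results recomputed for it as they were. No paired analysis was possible because no input file was analysed here and the results come from no test. The unknown depth limits all counts of absent regions.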

Other observations

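The end of 2R next to the telomere held no region over the last 179 kb, a longer interval than any stretch between regions on that arm. It was not counted, since it has a region on a single side. The other arm ends without regions measured at most 52.01 kb, on 3L.

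The 3 whole-series lines marked as depletion lay on 2R from 16150105 to 16151613, on 2R from 17029619 to 17031054 and on 3L from 3809871 to 3811425, with scores of -0.018, -0.033 and -0.001. None of them lay in a region that flanks a stretch. The gaps on either side of them measured 0.14 to 10.9 kb, so the lines marked as depleted were in parts of the arms with regions nearby and not in the long free stretches.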
